A study of Mus musculus with 22 samples.

Results

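The genes described here are 10 regulators of the actin cytoskeleton and of cell movement, among 55291 gene names measured by RNA-seq in mouse memory CD4+ T cells. They are the cortical linkers and crosslinkers Flna, Ezr and Msn, the myosins Myo1f and Myh9, the Arp2/3-associated genes Coro1a, Arpc5 and Cdc42, and Vim and Tln1. They were picked by name with earlier results of these libraries known. Flna, Ezr and Myo1f had been called lower in tissue than in circulation, and Cdc42 and Arpc5 higher in cells of one origin. Differences of the 10 genes by location, and by origin over all libraries, are therefore given as a description, with no test.

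The RNA libraries fall into 4 groups of 2. TissueExTRM and TissueExTcirc are cells recovered from tissue, and CirculatingExTRM and CirculatingExTcirc are cells recovered from the circulation. TRM are tissue-resident and Tcirc circulating memory cells, and the prefix names the population from which the recovered cells derive. All groups share the same background, in which type 2 helper (Th2) effector cells from OT-II creERT2 or DO11.10 T cell receptor transgenic donors were given to recipients sensitized with ovalbumin (OVA). The recipients are described as BALB/c-nu/nu, a strain whose nude mutation leaves it without a thymus, or as C57BL/6 (Ly5.2), and tamoxifen was given to induce Cre recombination. Cells were sorted on day 49 of the first experiment or day 71 of the second, with OVA rechallenge before the latter, at 3000 to 50000 cells per population. Every RNA library is labelled female, 6 to 10 weeks old, Balb/c host and lung, although the design text takes circulating cells from blood. The labels do not state which experiment an RNA library belongs to, so experiment and group cannot be told apart. They also do not state whether replicates are separate animals, so p-values measure only the spread between libraries, which may be technical. A further 14 samples of chromatin accessibility were not analysed here.

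A T cell moves by pushing out a front of branched actin and pulling its rear forward with myosin. Cdc42 switches on nucleation promoters that activate the Arp2/3 complex, of which Arpc5 is a subunit, while Coro1a binds actin filaments and the Arp2/3 complex. Ezr and Msn encode ezrin and moesin, which tie the plasma membrane to cortical actin, and Flna encodes filamin A, which crosslinks filaments and binds integrin tails. Tln1 encodes talin 1, which activates integrins, the adhesion receptors through which T cells arrest on vessel walls and migrate into tissue.

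Levels are in FPKM, fragments scaled to gene length and to the mapped fragments of a library, so levels can be set beside each other between genes. CirculatingExTRM replicate 1 held 917 genes above 0 and only Vim of the 10 genes, at 17.6 FPKM. It was treated as missing, which leaves CirculatingExTRM as a single library and 7 libraries in all. Genes above 0 numbered 30488 to 37894 in the 4 tissue libraries, 29688 in CirculatingExTRM replicate 2, and 12785 and 7042 in CirculatingExTcirc replicates 1 and 2. Depth relative to the deepest library was estimated at 24.1% to 100% in tissue, 25.3% in CirculatingExTRM replicate 2, and 8.60% and 4.01% in the CirculatingExTcirc libraries. The circulating libraries are thus on the whole shallower, and depth moves with location. T cell identity genes summed to 1203 to 1760 FPKM in tissue and to 1259 to 2015 in the circulating libraries, and all 12 of these genes were detected in at least 1 library. Of the 12, 8 were above 0 in all 7 libraries, while Cd3d, Cd247, Lck and Cd5 were at 0 in CirculatingExTcirc replicate 2.

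Flna, Ezr, Msn and Myo1f were higher in each of the 3 circulating libraries than in each of the 4 tissue libraries. The ratio of mean FPKM, circulating over tissue, was 3.54 for Myo1f, 2.50 for Flna, 2.45 for Ezr and 1.58 for Msn. Myh9, Coro1a, Vim and Tln1 overlapped between the locations, with ratios of 1.11 to 1.36. Arpc5 and Cdc42 were listed at 0 in both CirculatingExTcirc libraries and were highest of all in the CirculatingExTRM library. Among all 2656 genes with a mean of at least 20 FPKM, 11.8% had the 3 circulating libraries above the 4 tissue libraries and 12.1% the reverse, against 4 and 0 of the 10 genes. Since location took part in the choice of the genes, nothing is read from that count.

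**Figure D1:**
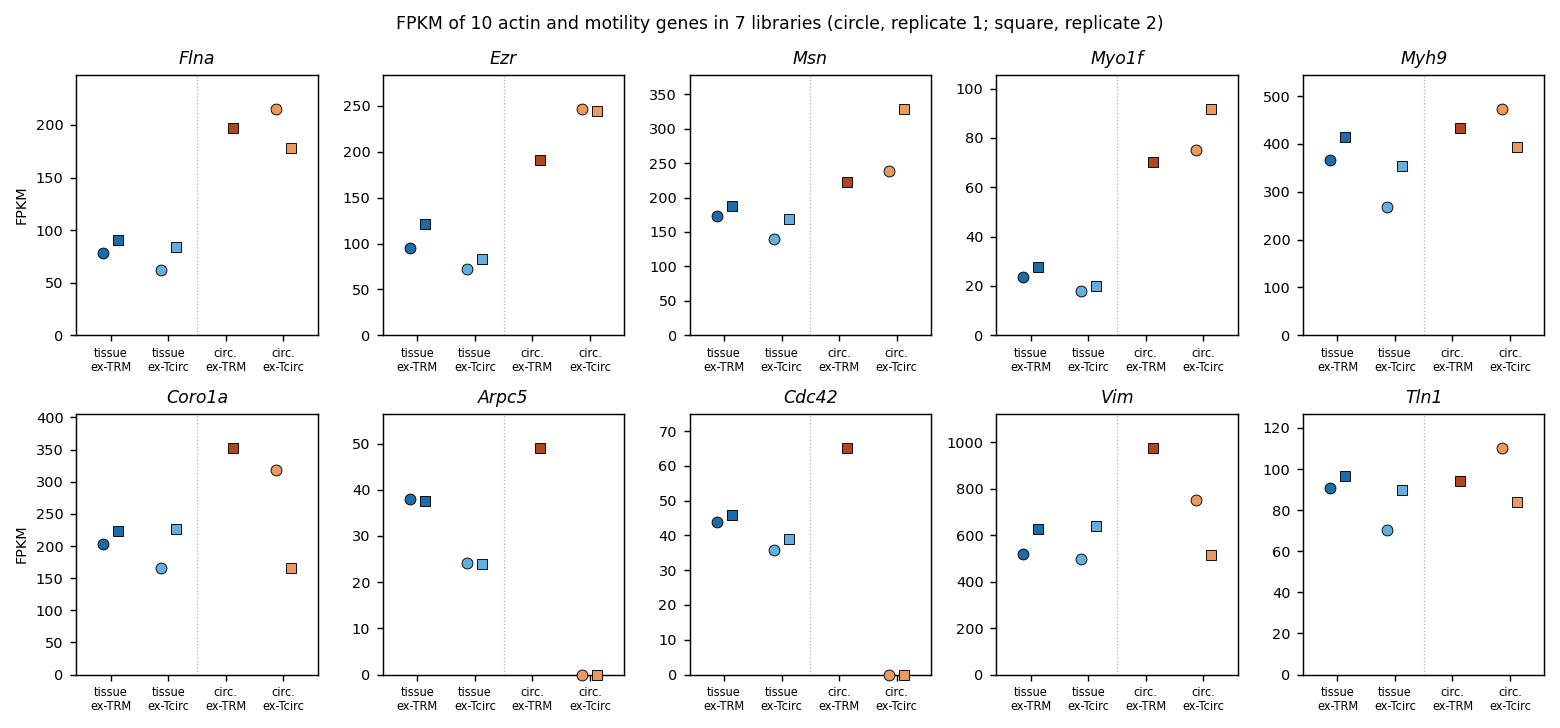
FPKM (y axis, linear from 0, a scale per gene) of the 10 genes in 7 libraries, by group (x axis). Circles are replicate 1 and squares replicate 2, and the dotted line parts tissue from circulating groups. Flna, Ezr, Msn and Myo1f lie higher right of the line, and Arpc5 and Cdc42 lie at 0 in both CirculatingExTcirc libraries.

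Promoters are shown, as a description only, for the 4 genes whose locations were separated in the deposited FPKM. Each line gives the 150 bases before the start site in RefSeq's promoter table (build GRCm38.p6), 5′ to 3′ on the gene's strand. Capitals mark GGGCGG, the GC box bound by Sp-family factors, or its reverse complement CCGCCC. The Flna stretch is chrX:74246535-74246684 on the minus strand, inside the span of the annotated gene, which reaches further upstream. The Ezr stretch is chr17:6782781-6782930 on the minus strand, the Myo1f stretch chr17:33555557-33555706 on the plus strand, and the Msn stretch chrX:96095895-96096044 on the plus strand.
Flna: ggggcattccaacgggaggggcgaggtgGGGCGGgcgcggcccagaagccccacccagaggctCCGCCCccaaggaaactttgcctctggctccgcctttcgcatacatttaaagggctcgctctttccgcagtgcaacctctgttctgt
Ezr: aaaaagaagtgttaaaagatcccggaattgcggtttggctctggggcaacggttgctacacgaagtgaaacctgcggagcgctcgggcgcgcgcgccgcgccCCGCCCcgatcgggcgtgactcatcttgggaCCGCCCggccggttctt
Myo1f: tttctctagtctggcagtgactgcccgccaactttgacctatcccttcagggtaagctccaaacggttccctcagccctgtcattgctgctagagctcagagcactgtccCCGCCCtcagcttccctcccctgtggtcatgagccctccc
Msn: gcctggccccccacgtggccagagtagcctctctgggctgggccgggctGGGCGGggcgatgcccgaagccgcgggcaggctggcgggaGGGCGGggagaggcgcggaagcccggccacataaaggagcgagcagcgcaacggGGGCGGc

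Over 250 bases before the start, GGGCGG on either strand was found in 32.7% of the 32851 promoters in the table and in 8 of the 10 genes, all except Vim and Tln1. CACCC, the core of the sites bound by Krüppel-like factors, was found on either strand in 52.0% of all promoters and in 7 of the 10 genes, and its matches can share bases with those of GGGCGG. A CArG box, the site bound by serum response factor, was found in 1.47% of all promoters and in none of the 10 genes. The table holds 11 promoters for the 10 genes. A match is only a run of letters in the window, and the windows were searched with no test.

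Flna encodes filamin A, the crosslinker that also anchors integrins and other receptors to actin. Flna measured 78.1 and 90.8 FPKM in TissueExTRM, 62.4 and 84.1 in TissueExTcirc, 197 in CirculatingExTRM and 216 and 178 in CirculatingExTcirc. The lowest circulating library was 1.96 times the highest tissue library. Mean levels were 78.9 ± 12.1 FPKM in tissue (SD, n = 4) and 197 ± 19.0 in circulation (SD, n = 3). Log2 differences by location are means over both origins, so the single CirculatingExTRM library weighs as much as both CirculatingExTcirc libraries together. For Flna the difference in log2(FPKM + 1), tissue minus circulating, was -1.32 ± 0.22 (SE). Both origins showed it, and within a location the ex-TRM and ex-Tcirc libraries overlapped.

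Ezr encodes ezrin, and Msn encodes moesin, the member of this family that dominates in lymphocytes. Ezr measured 94.6 and 121 FPKM in TissueExTRM, 72.0 and 83.0 in TissueExTcirc, 191 in CirculatingExTRM and 247 and 244 in CirculatingExTcirc, a log2 difference of -1.24 ± 0.20. Msn measured 172 and 188 FPKM in TissueExTRM, 139 and 169 in TissueExTcirc, 222 in CirculatingExTRM and 239 and 329 in CirculatingExTcirc, a log2 difference of -0.58 ± 0.21. Msn thus stood above Ezr in every tissue library, and the gap narrowed in circulation. The ratio of Ezr to Msn within a library was 0.491 to 0.643 in tissue and 0.742 to 1.03 in circulation. CirculatingExTcirc replicate 1 was the library in which Ezr passed Msn. Rdx, which encodes radixin, the remaining member of the family, had 17.4 to 23.9 FPKM in tissue, 24.3 in CirculatingExTRM and 0 in both CirculatingExTcirc libraries, and its mean over the 7 libraries was below 20 FPKM, so it was not in the fit by location.

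Myo1f encodes a class I myosin that links membrane to actin in blood cells, and it had the largest ratio between locations of the 10 genes. Myo1f measured 23.4 and 27.7 FPKM in TissueExTRM, 18.0 and 20.1 in TissueExTcirc, 70.0 in CirculatingExTRM and 75.2 and 91.9 in CirculatingExTcirc, a log2 difference of -1.75 ± 0.24. The lowest circulating value was 2.53 times the highest tissue value. In each tissue library Myo1f had the lowest level of the 10 genes. Myo1g, a class I myosin of lymphocytes, gave a ratio of Myo1f to Myo1g of 0.321 to 0.457 in tissue and 0.661 to 1.10 in circulation.

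Myh9 encodes the heavy chain of non-muscle myosin IIA, the motor that contracts the rear of a moving T cell. Myh9 measured 367 and 415 FPKM in TissueExTRM, 267 and 353 in TissueExTcirc, 434 in CirculatingExTRM and 474 and 393 in CirculatingExTcirc, a log2 difference of -0.32 ± 0.20. CirculatingExTcirc replicate 2 lay below TissueExTRM replicate 2, so the locations overlapped. Myh9 was the second most abundant of the 10 genes in all 7 libraries. Set against Myh9 in the same library, Flna was 0.213 to 0.238 in tissue and 0.452 to 0.455 in circulation, and Myo1f was 0.0570 to 0.0674 in tissue and 0.159 to 0.234 in circulation. A ratio within a library does not depend on how the library was scaled, and it shows unequal levels without saying which of the pair changed.

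**Figure D2:**
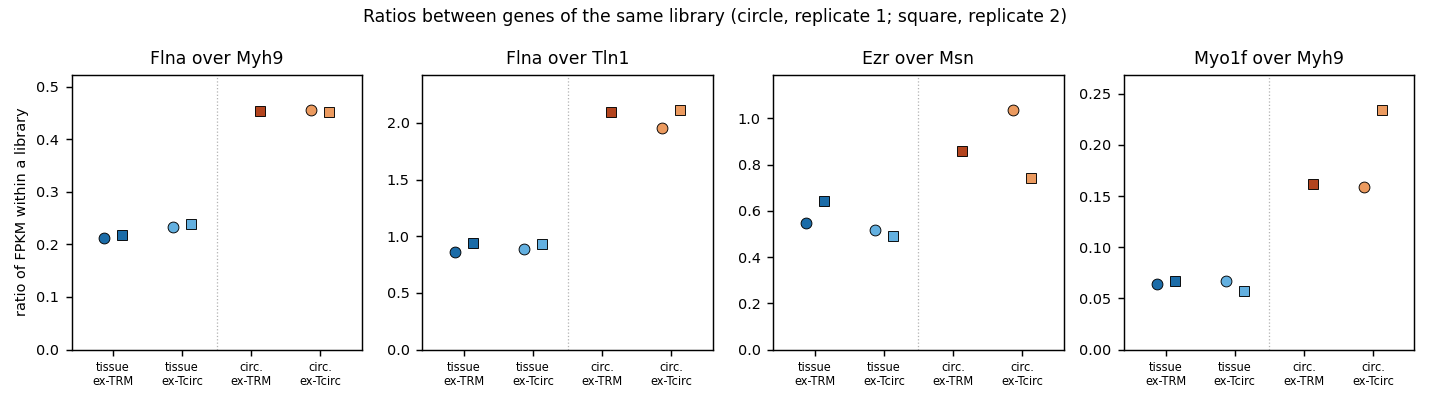
Ratio of FPKM between genes of the same library (y axis, linear from 0) by group (x axis), for Flna over Myh9, Flna over Tln1, Ezr over Msn and Myo1f over Myh9. Circles are replicate 1 and squares replicate 2. In each panel the 3 circulating libraries lie above the 4 tissue libraries, for Flna over Myh9 at 0.452 to 0.455 against 0.213 to 0.238.

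Tln1 and Vim did not follow Flna. Tln1 measured 90.6 and 96.8 FPKM in TissueExTRM, 70.6 and 90.0 in TissueExTcirc, 94.0 in CirculatingExTRM and 110 and 84.2 in CirculatingExTcirc, a log2 difference of -0.14 ± 0.23. Vim encodes vimentin, the intermediate filament protein of leukocytes and mesenchymal cells. Vim measured 519 and 627 FPKM in TissueExTRM, 499 and 638 in TissueExTcirc, 976 in CirculatingExTRM and 751 and 514 in CirculatingExTcirc, a log2 difference of -0.46 ± 0.24. Vim had the highest level of the 10 genes in every library, and its circulating libraries ranged from within the tissue values to well above them. The ratio of Flna to Tln1, filamin and talin both being partners of integrin tails, was 0.863 to 0.939 in tissue and 1.95 to 2.11 in circulation.

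Coro1a encodes coronin 1A, which T cells need for survival and trafficking. Coro1a measured 203 and 224 FPKM in TissueExTRM, 166 and 226 in TissueExTcirc, 353 in CirculatingExTRM and 318 and 166 in CirculatingExTcirc, a log2 difference of -0.49 ± 0.32. CirculatingExTRM and CirculatingExTcirc replicate 1 were above all tissue libraries, while CirculatingExTcirc replicate 2 was within their range. The difference between the CirculatingExTcirc libraries was larger than any between replicates of a tissue group.

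Cdc42, the small GTPase that sets cell polarity, and Arpc5, the Arp2/3 subunit, shared a pattern that none of the other 8 genes had. Cdc42 measured 43.8 and 45.8 FPKM in TissueExTRM, 35.9 and 38.9 in TissueExTcirc, 65.2 in CirculatingExTRM and 0 and 0 in CirculatingExTcirc. Arpc5 measured 38.1 and 37.6 FPKM in TissueExTRM, 24.2 and 24.0 in TissueExTcirc, 49.1 in CirculatingExTRM and 0 and 0 in CirculatingExTcirc. In cells of TRM origin the circulating library was thus above both tissue libraries, and in cells of Tcirc origin both circulating libraries, the shallowest of the 7, listed no value above 0 for either gene, from which no direction is read. The averaged log2 differences, tissue minus circulating, were 2.37 ± 0.31 for Cdc42 and 2.14 ± 0.33 for Arpc5. Averaged over locations, ex-TRM minus ex-Tcirc was 3.15 ± 0.31 for Cdc42 and 3.14 ± 0.33 for Arpc5. Each of these values rests on the pair of zeros and on the pseudocount, and is not a fold.

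A listing at 0 was more frequent for genes of this level in the CirculatingExTcirc libraries than in CirculatingExTRM replicate 2. Of 700 protein-coding genes with a tissue mean of 30 to 60 FPKM, the range that holds Cdc42 (mean 41.1) and Arpc5 (mean 31.0), 86 (12.3%) were at 0 in both CirculatingExTcirc libraries. Of the same genes, 13.3% were at 0 in CirculatingExTcirc replicate 1, 55.9% in replicate 2 and 0.143% in CirculatingExTRM replicate 2. Among the 62 genes of at least 200 FPKM in tissue, 1.61% were at 0 in both. Cd3d, a subunit of the T cell receptor complex with 19.2 to 22.6 FPKM in tissue, was also at 0 in both CirculatingExTcirc libraries. The part of depth in the zeros of Cdc42 and Arpc5 was not tested, and the zeros are not read as absence of expression.

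**Figure D3:**
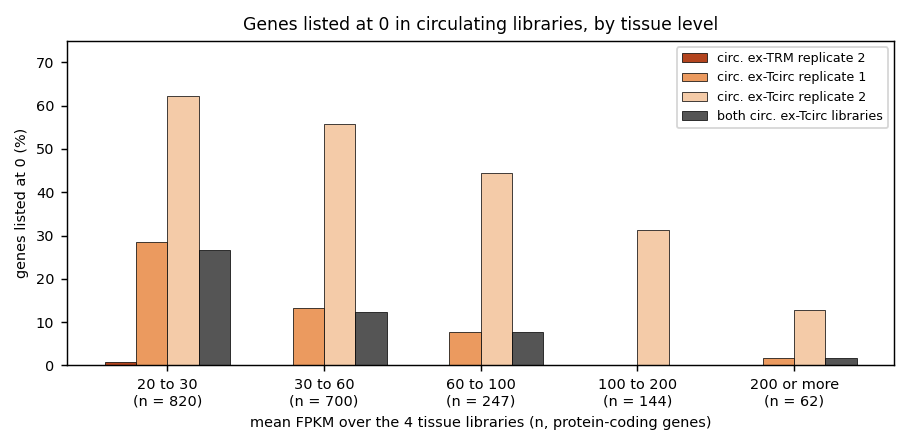
Share of protein-coding genes listed at 0 (y axis, percent) in CirculatingExTRM replicate 2, in each CirculatingExTcirc library and in both of the latter, by mean FPKM over the 4 tissue libraries (x axis, n is the number of genes). At 30 to 60 FPKM, the range that holds Cdc42 and Arpc5, 12.3% of 700 genes are at 0 in both CirculatingExTcirc libraries.

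The 10 genes were also set beside the median of all genes. The median log2 difference of the 2656 genes, tissue minus circulating, was 0.43, and 8 of the 10 genes lay below it, with a median over the 10 of -0.47. Genes with zeros in circulating libraries are part of the 0.43, and such zeros raise a difference. The 8 genes have no zeros in the libraries fitted, so nothing is read from that count. All 10 passed the minimum of 20 FPKM. The fit passed 174 genes as higher in tissue (6.55%) and 21 as lower (0.791%) at a Benjamini-Hochberg adjusted p under 0.05. Flna, Ezr and Myo1f are among the latter, as the choice of the genes fixed. Cdc42 and Arpc5, chosen on origin, are among the former, which rests on their zeros in both CirculatingExTcirc libraries. These 5 also passed with T cell scaling, but Ezr and Myo1f did not with scaling to the sum of protein-coding genes, and none of the 5 did as TPM, with median-of-ratios factors or without any single tissue library. T cell scaling was added after the data were seen. The 5 genes were chosen on contrasts of the same libraries, so nothing is read from whether they pass. The 8 negative differences kept their sign under scaling to the sum of protein-coding genes, to T cell identity genes and to TPM, and under median-of-ratios factors Tln1 turned to 0.06.

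**Figure D4:**
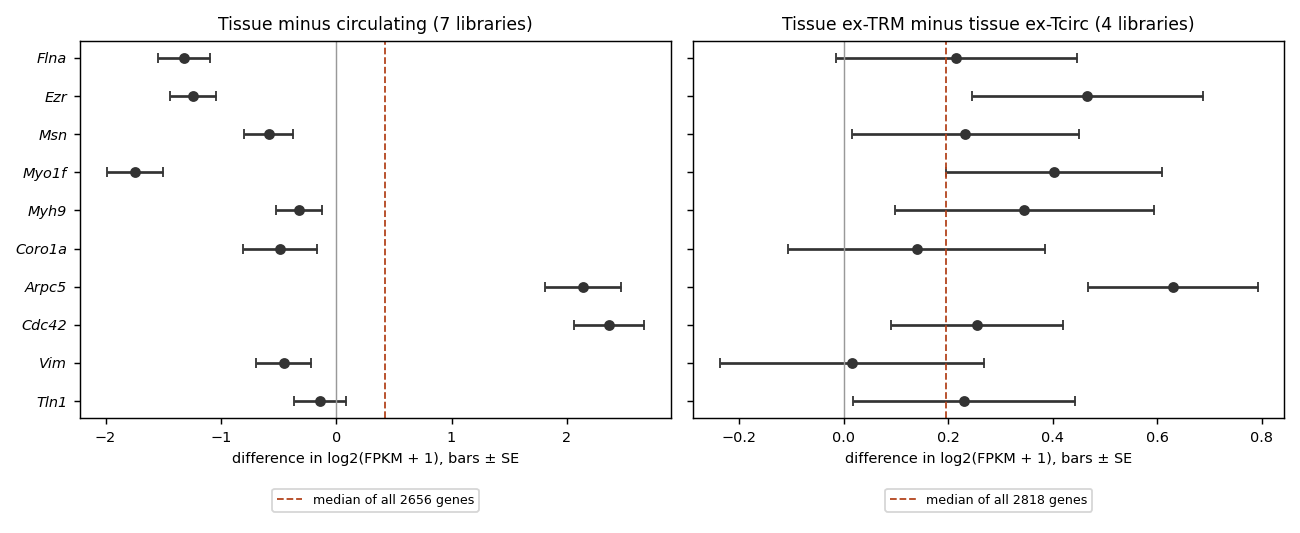
Difference in log2(FPKM + 1) with its SE (x axis) for each of the 10 genes (y axis), for tissue minus circulating over 7 libraries (left) and TissueExTRM minus TissueExTcirc over 4 libraries (right). Dashed lines are the medians of all genes fitted, 0.43 and 0.20. On the left 8 genes lie below 0 and Arpc5 and Cdc42 above 2, and on the right all 10 lie between 0.02 and 0.63.

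The scale of the libraries changed how many genes had separated locations, and not the leading genes. When FPKM were scaled to T cell identity genes, Flna, Ezr, Msn and Myo1f remained separated and no other of the 10 genes was, beside 8.06% of all genes. When they were scaled to the sum of protein-coding genes, Myh9, Coro1a and Vim joined these 4, beside 15.1% of all genes. On the TPM scale Coro1a and Vim joined them, beside 15.2%, and with median-of-ratios factors Flna, Ezr and Myo1f alone were separated, beside 7.57%. The ratio of means ranged over the deposited, protein-coding, T cell and TPM scales from 2.42 to 3.09 for Flna, 2.42 to 3.18 for Ezr and 3.47 to 4.64 for Myo1f.

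Ptprc, which encodes the pan-leukocyte protein CD45, served as a reference within each library. Ptprc itself measured 215 and 213 FPKM in TissueExTRM and 152 and 192 in TissueExTcirc. It measured 253 in CirculatingExTRM and 276 and 256 in CirculatingExTcirc, so the reference was higher in circulation and lowers every ratio there. Flna over Ptprc was 0.363 to 0.438 in tissue and 0.693 to 0.782 in circulation. Ezr over Ptprc was 0.432 to 0.570 in tissue and 0.754 to 0.954 in circulation, and Myo1f over Ptprc was 0.105 to 0.130 in tissue and 0.273 to 0.359 in circulation. The ratios of Msn, Coro1a, Vim and Myh9 to Ptprc overlapped between locations. Tln1 over Ptprc was lower in circulation, at 0.329 to 0.400 against 0.421 to 0.469 in tissue. The levels of Tln1 overlapped between locations, so this ratio is not read as a lower Tln1 level. Over the 28 pairs among the 8 genes above 0 in all libraries, 18 ratios had separated locations. These were 14 of the 15 pairs of Flna, Ezr or Myo1f with another gene, 2 of the 3 pairs among Flna, Ezr and Myo1f, and 2 of the 10 pairs among the rest. The grouping was made after the values were seen, and the choice of Flna, Ezr and Myo1f on location builds separation into their pairs. No share over all gene pairs was computed, so nothing is read from these counts.

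Markers of other cell types also differed between libraries. The 12 myeloid markers summed to 72.6 to 180 FPKM in tissue, 92.2 in CirculatingExTRM and 783 and 324 in CirculatingExTcirc, where Lyz2 alone gave 646 and 255, while S100a8 and S100a9 were at 0 in all 7 libraries. The 7 epithelial markers summed to 588 FPKM in CirculatingExTcirc replicate 1 and to 0 to 93.3 in the others. Sftpc, Sftpa1 and Scgb1a1 made up the sum of 588, at 421, 93.1 and 73.9 FPKM. Epcam, Cdh1, Krt18 and Sftpb were at 0 in that library, while Epcam and Cdh1 were above 0 in every tissue library. The 6 B cell markers reached 392 FPKM in TissueExTcirc replicate 1 and 255 in CirculatingExTcirc replicate 1, with Cd79a and Cd79b at 0 in all 7. The 7 platelet markers summed to 7.97 to 19.2 FPKM in tissue and 2.23 to 4.92 in circulation, with Ppbp at 0 in all 7, and the 4 smooth muscle markers to at most 5.52 in any library. The part of other cell types in the levels of Flna, Ezr, Msn and Myo1f was not tested. In CirculatingExTRM replicate 2, where the myeloid sum was within the tissue range and the epithelial sum was 36.5, Flna, Ezr and Myo1f were 197, 191 and 70.0 FPKM. The same genes were 216, 247 and 75.2 FPKM in CirculatingExTcirc replicate 1, and 178, 244 and 91.9 in replicate 2. The low-sum case is a single library and the genes were chosen on location, so nothing is read from these values. In sorted bulk samples, fewer cells of a type and less RNA per cell cannot be told apart.

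Within tissue, cells of TRM origin were compared with cells of Tcirc origin over the 4 tissue libraries. Estimated relative depth was 100% and 90.1% in TissueExTRM and 24.1% and 57.4% in TissueExTcirc, so depth also moves with origin in tissue. The part of depth in the differences by origin was not tested. The choice of Cdc42 and Arpc5 used origin over all libraries, so these values are a description for them and a test for the other 8 genes. limma passed 0 of 2818 genes at an adjusted p under 0.05, while 215 had an unadjusted p under 0.05. None of the 8 genes passed: the log2 differences, TissueExTRM minus TissueExTcirc, were 0.47 ± 0.22 for Ezr (adjusted p = 0.488), 0.40 ± 0.21 for Myo1f (adjusted p = 0.488) and 0.35 ± 0.25 for Myh9 (adjusted p = 0.517). The smallest was 0.02 ± 0.25 for Vim (adjusted p = 0.974). Arpc5 differed by 0.63 ± 0.16 and Cdc42 by 0.25 ± 0.16. All 10 differences were positive on the deposited scale, as were 70.2% of all genes, but only 7 after scaling to protein-coding genes and 4 after scaling to T cell identity genes, the latter a scale added after the data were seen. Both TissueExTRM libraries lay above both TissueExTcirc libraries for 7 of the 10 genes, all except Flna, Coro1a and Vim, beside 43.2% of all genes tested. That count was 7 as TPM (beside 57.5%), 4 scaled to protein-coding genes (beside 17.2%), 3 with median-of-ratios factors (beside 14%) and 1, Arpc5, scaled to T cell identity genes (beside 12.9%).

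In cells of Tcirc origin alone the log2 difference, tissue minus circulating, was -1.66 ± 0.25 for Ezr, -2.07 ± 0.31 for Myo1f, -1.42 ± 0.28 for Flna and -0.87 ± 0.27 for Msn. The location difference in TRM origin minus that in Tcirc origin was 0.83 ± 0.39 for Ezr, 0.65 ± 0.49 for Myo1f, 0.57 ± 0.43 for Msn and 0.20 ± 0.45 for Flna, with CirculatingExTRM given by its single library, which is assumed to vary like the other groups. These values are a description, since the genes were chosen on contrasts of the same libraries.

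Other genes of the cytoskeleton were taken from 10 lists of 123 genes in all, of which 88 had a mean of at least 20 FPKM over the 7 libraries. limma passed 3 of the 88 as higher in tissue, beside 6.55% of all genes, and 0 as lower, beside 0.791%. Among the 3 were Capzb, which caps filament ends (2.52 ± 0.37, adjusted p = 0.0361), and Tubb4b, a beta tubulin (2.45 ± 0.36, adjusted p = 0.0361). All 3 were listed at 0 in both CirculatingExTcirc libraries, as Cdc42 and Arpc5 were. Capzb measured 35.9 to 65.4 FPKM in tissue and 84.3 in CirculatingExTRM, and Tubb4b 25.1 to 36.6 in tissue and 36.4 in CirculatingExTRM, so neither was lower in that circulating library than in TissueExTRM, and the differences rest on the zeros. The median log2 difference of the 88 genes was 0.29, beside 0.43 for all genes. None of the 3 passed when any single tissue library was left out. Leaving out a CirculatingExTcirc library leaves that group with 1 library. The count of passing list genes then rose along with that of all genes, and nothing is read from it.

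The actin genes themselves had negative differences that did not pass the test. Actg1, which encodes gamma actin, measured 122 to 200 FPKM in tissue, 389 in CirculatingExTRM and 382 and 575 in CirculatingExTcirc, a log2 difference of -1.38 ± 0.28 (adjusted p = 0.0735). Actb, which encodes beta actin, measured 990 to 1262 FPKM in tissue and 1495 to 2078 in circulation, a log2 difference of -0.57 ± 0.22 (adjusted p = 0.302). Reads of both can be shared with pseudogene copies, so their levels are uncertain. Flna over Actb was 0.0630 to 0.0769 in tissue and 0.104 to 0.128 in circulation.

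The circulating libraries were all above the tissue libraries for 9 of the 88 genes, beside 11.8% of all genes. The 9, named after their values were seen, were Actb, Actg1, Capza1 and Wdr1 of actin turnover, Dock2 and Iqgap1 of cytoskeletal signalling, the surface sialomucins Spn (CD43) and Selplg (PSGL-1), and the myosin light chain Myl12b. Spn and Selplg are partners of ezrin and moesin at the cell surface. Spn measured 77.1 to 126 FPKM in tissue and 196 to 249 in circulation (log2 difference -1.08 ± 0.26, adjusted p = 0.114), and Selplg 88.2 to 111 in tissue and 163 to 301 in circulation (-0.998 ± 0.28, adjusted p = 0.162). Lmna, which encodes the nuclear lamins A and C, was the only one of the 88 with all tissue libraries above all circulating libraries, beside 12.1% of all genes. Lmna measured 142 to 203 FPKM in tissue, 92.6 in CirculatingExTRM and 84.7 and 0 in CirculatingExTcirc (2.60 ± 1.76, adjusted p = 0.561).

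Of the 88 genes, 44 were above 0 in all 7 libraries, with a median difference of -0.27, and 41 were listed at 0 in CirculatingExTcirc replicate 2 alone, with a median of 1.09. A 0 in a circulating library itself raises tissue minus circulating, so nothing is read from the sign of the differences in either set. Cfl1, which encodes the filament-severing cofilin, is of this kind, with 83.5 to 132 FPKM in tissue, 253 in CirculatingExTRM, and 148 and 0 in CirculatingExTcirc. Rac2, the Rac GTPase of blood cells, had 43.4 to 61.8 FPKM in tissue, 97.6 in CirculatingExTRM, and 135 and 0 in CirculatingExTcirc. Pfn1, Tmsb4x and Rhoa, which supply actin monomers or drive contraction, were above 0 throughout, with log2 differences of -0.10 ± 0.73, -0.35 ± 0.27 and 0.23 ± 0.63 and overlapping locations.

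**Figure D5:**
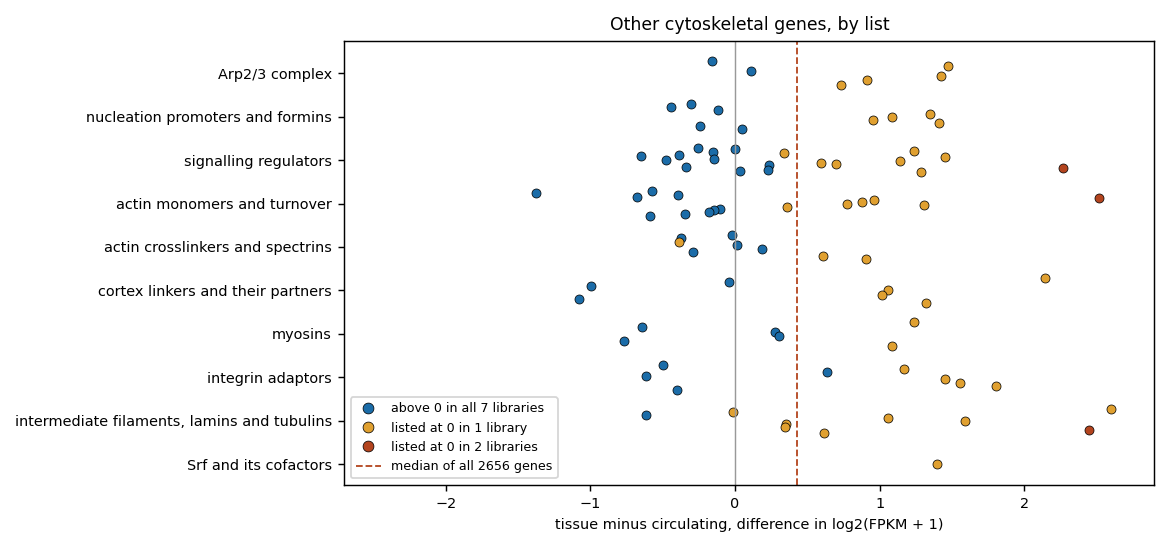
Tissue minus circulating difference in log2(FPKM + 1) (x axis) of the 88 tested genes of the 10 lists (y axis), each point a gene, coloured by the number of the 7 libraries in which the gene is listed at 0. The dashed line is the median of all 2656 genes, 0.43. A 0 in a circulating library itself moves a gene to the right, and the colours show which of the 88 points carry such a value (44 carry none).

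In tissue, by origin, none of the 90 tested list genes passed in limma at an adjusted p under 0.05. On the deposited scale, differences, TissueExTRM minus TissueExTcirc, were positive for 84 of the 90, beside 70.2% of all 2818 genes. The median was 0.25, beside 0.20 for all genes. Signs of the list genes were not counted under other scalings, so nothing is read from that count.

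The genes whose levels ran most like those of Flna over the 7 libraries were Actg-ps1, Rpl34, Hist1h4m, H4c4 and Tcf7, with Pearson r of 0.974 to 0.987 of log2(FPKM + 1) among 2136 genes compared. Tcf7 encodes the transcription factor TCF1 and measured 35.0 to 57.0 FPKM in tissue, 165 in CirculatingExTRM and 145 and 106 in CirculatingExTcirc. Actg-ps1 is an actin pseudogene and Hist1h4m and H4c4 are near-identical histone genes, so their values are uncertain. Among the 10 genes, r over the 7 libraries was 0.965 between Flna and Ezr, 0.968 between Flna and Myo1f and 0.985 between Ezr and Myo1f. Coro1a and Vim formed a pair at 0.958, and Myh9 and Tln1 at 0.923. Cdc42 and Arpc5 were at 0.998, and the 5 genes most like Cdc42, namely Selenok, Eif3i, Gatad2a, Clic1 and Prpsap1, were all at 0 in both CirculatingExTcirc libraries. These correlations rest on 7 points that share the differences in depth between libraries.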

How the data were processed

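The authors deposited 1 FPKM value for each gene entry of a library, per the file headers. Tools listed in the submitters' processing notes include HISAT2 2.2.1, StringTie 3.0.1, Trim Galore 0.6.7 and SAMtools 1.15, with the build mm10, which is GRCm38. Not given in the sources used here are the annotation and the strand setting, and total counts are not part of the values. Values of a gene name were summed, which gave 55291 names. limma 3.58.1 in R 4.3.3 was fitted with an intensity trend to group means of log2(FPKM + 1), on which differences of low genes are understated. The 7-library fit kept 2656 genes and the 4-library tissue fit 2818, at a mean of at least 20 FPKM, with Benjamini-Hochberg adjustment over all of them and a threshold of 0.05. The script was tested on simulated data.

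The 10 genes and all lists were chosen with earlier results of these data known. Named genes were all 10, Actb, Actg1, Cfl1, Pfn1, Tmsb4x, Rac2, Rhoa and Rdx, the 4 passing list genes with the largest difference per direction, overall and among those above 0 throughout (of which there were none; 1 passing gene is not reported here), and the 5 genes most correlated with Flna and with Cdc42. Of the list genes, 6 were found under present symbols. T cell scaling used the mean of the 8 of 12 T cell identity genes above 0 in all 7 libraries. Relative depth was the ratio at which the values of the lowest 20% of genes pile up. Sequences come from RefSeq. Alternatives were another pseudocount, filter, scaling, replicate block, library weights, all 8 libraries, other terms, the highest value per name and each library left out.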

Additional observations from a re-analysis of the deposited data

Results flagged for a closer look

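Cdc42 and Arpc5 were flagged because their computed location differences had opposite signs in cells of the 2 origins. The difference in Tcirc origin rests on zeros, from which no direction is read, so an opposite direction is not established. In cells of TRM origin the single circulating library (65.2 and 49.1 FPKM) was above both tissue libraries, and in cells of Tcirc origin both circulating libraries were listed at 0. Of protein-coding genes at 30 to 60 FPKM in tissue, 12.3% were at 0 in both of these libraries. The part of depth in the zeros of Cdc42 and Arpc5 was not tested, and the zeros are not read as a lower level. The location difference in TRM origin minus that in Tcirc origin was -5.79 ± 0.61 for Cdc42 and -5.02 ± 0.66 for Arpc5 on the log2(FPKM + 1) scale. It is given without a p-value, since both genes were chosen on contrasts of the same libraries, and its size depends on the pseudocount: with 0.1 FPKM it was -9.09 and -8.29.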

How the results depend on the processing

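Counts of passing genes depended on the processing. For tissue against circulating (195 genes, 3 of the cytoskeletal lists) they were 2259 and 16 with a mean of at least 5 FPKM, 4345 and 15 with no filter, 1 and 0 among genes above 0 in every library, 67 and 0 with median-of-ratios factors, 113 and 0 as TPM, 1 and 0 with location as the only term, and 0 and 0 with the replicate block, library weights, all 8 libraries or only the ex-Tcirc groups. Leaving out single libraries gave 0 to 1860 and 0 to 60.

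Within ex-Tcirc (242 genes) the counts were 2640 with a mean of at least 5 FPKM, 4981 with no filter, 13 above 0 in every library, 158 with the replicate block, 0 with library weights or all 8 libraries, and 0 to 1969 with single libraries left out. For origin over all libraries (132 genes) they were 2061 with a mean of at least 5 FPKM, 4649 with no filter, 2 as TPM, 0 above 0 in every library, with median-of-ratios factors, scaled to protein-coding genes, with the replicate block, library weights or all 8 libraries, and 0 to 1663 with single libraries left out. For origin in tissue (0 genes) they were 5 with median-of-ratios factors, 3 as TPM, 3 with the replicate block and 0 to 429 with single libraries left out. For the difference between origins (4 genes) they were 179 with a pseudocount of 0.1 FPKM, 2013 with a mean of at least 5 FPKM, 3165 with no filter, 0 above 0 in every library, with median-of-ratios factors, the replicate block, library weights or all 8 libraries, and 0 to 1704 with single libraries left out. The cause of these changes was not tested.

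With all 8 libraries, the nearly empty one included, Flna turned to 0.59 and Ezr to 0.65, tissue minus circulating, and Msn, Myh9, Coro1a, Vim and Tln1 also turned positive (0.97 to 1.87). Without CirculatingExTRM replicate 2 the comparisons that need that group have no value. Same-numbered replicates did not deviate together (r of -0.09 to 0.01 over genes), so the replicate block pairs nothing known from the design. Zeros fell mostly on low genes: 26.7% of protein-coding genes at 20 to 30 FPKM in tissue, and 1.61% at 200 or more, were listed at 0 in both CirculatingExTcirc libraries. The part of depth in these zeros was not tested.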
